A study of Homo sapiens with 6 samples.

Results

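The cyclin D, CDK and RB pathway was described here by 10 genes of the 78932 in the count table: the D-type cyclins CCND1, CCND2 and CCND3, the kinases CDK4, CDK6 and CDK2, the inhibitors CDKN2A, CDKN2C and CDKN1B, and RB1. They were taken by name as the core of the pathway and not by a rule on their values, though earlier results of these data were known. Each symbol matched 1 Ensembl gene. All 10 had enough reads to be tested. Poly(A) RNA had been sequenced from 6 libraries labelled HCC1937, a triple-negative breast cancer cell line. Of these, 3 were controls, whose treatment the labels give only as "con", and 3 came from cells given 8 nM docetaxel, a taxane that stabilises microtubules. Both groups were collected at 24 h and share 1 cell line. Libraries within a group are labelled as biological replicates, and nothing says whether each was its own culture.

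D-type cyclins carry mitogen signals into the cell cycle. Each binds CDK4 or CDK6, and the active kinase phosphorylates RB, the product of RB1. Unphosphorylated RB holds E2F transcription factors inactive, and phosphorylation releases them to switch on genes of DNA synthesis. Cyclin E with CDK2 then completes RB phosphorylation. INK4 proteins, among them the p16 product of CDKN2A and p18 from CDKN2C, block CDK4 and CDK6, and p27 from CDKN1B binds cyclin-CDK complexes and inhibits CDK2. This axis is the target of CDK4/6 inhibitor drugs.

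Library totals ran from 38622062 to 41675186 counts, and no library stood apart in depth. Epithelial markers were uneven: EPCAM, KRT5, KRT14 and KRT19 had too few reads to test and CDH1 was below 1 CPM in each group's mean, while KRT8 averaged 1812 CPM in control and 2127 CPM with docetaxel (edgeR adjusted p = 3.55e-05, where CPM is the count relative to the scaled library total, times a constant). EPCAM, CDH1 and the basal keratins KRT5 and KRT14 were nearly absent, while KRT8 and KRT18 were at the 99.4 and 99.1 percentiles of tested genes per length. As these epithelial markers point different ways, the cells are called by their label only. KRT18 also rose, from 633 to 701 CPM (adjusted p = 0.00597), as did KRT17, another basal keratin, from 4.82 to 7.22 CPM (adjusted p = 0.00520). With a trend in GC content and gene length taken out of each library, KRT8 was still called (log2 difference 0.13, edgeR adjusted p = 0.00401). KRT18 and KRT17 were then not called (0.04 and 0.45, adjusted p = 0.610 and 0.0729). The summed level of the 8 epithelial markers was 2386 to 2489 CPM in control libraries and 2794 to 2858 CPM in docetaxel libraries, and its part in the changes reported here was not tested. Of the markers of other cell types, 0 of 3 leukocyte genes (PTPRC, CD3E and CD68) could be tested, and their sum was at most 0.104 CPM in any library. The fibroblast markers COL1A2, DCN, LUM and PDGFRA were also too low to test, and COL1A1 was at 137 and 143 CPM (adjusted p = 0.383). The endothelial markers PECAM1, VWF and CDH5 summed to at most 3.55 CPM, with none called (adjusted p = 0.219, 0.986 and 0.648).

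Promoter sequence from RefSeq (GRCh38.p14) was available for 7 of the 10 genes, with 13 start sites between them. For RB1, CDK4 and CDKN1B the only such start lies inside the annotated gene, as do all starts of CCND3 and CDK6. The CDK4 promoter and the CDKN2A pair are shown, the first for its repeated motif and the second because a gene-level count adds up RNA from both starts. Each line gives the 250 bases before a start, on the gene's own strand, with matches to the E-box CACGTG in capitals.
CDK4, chr12:57752311-57752560, minus strand: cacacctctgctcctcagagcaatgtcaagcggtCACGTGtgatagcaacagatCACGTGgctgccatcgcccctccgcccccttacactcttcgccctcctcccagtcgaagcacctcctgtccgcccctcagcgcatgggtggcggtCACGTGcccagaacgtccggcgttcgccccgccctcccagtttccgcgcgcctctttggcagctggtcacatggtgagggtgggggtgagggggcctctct
CDKN2A upstream start, chr9:21995325-21995574, minus strand: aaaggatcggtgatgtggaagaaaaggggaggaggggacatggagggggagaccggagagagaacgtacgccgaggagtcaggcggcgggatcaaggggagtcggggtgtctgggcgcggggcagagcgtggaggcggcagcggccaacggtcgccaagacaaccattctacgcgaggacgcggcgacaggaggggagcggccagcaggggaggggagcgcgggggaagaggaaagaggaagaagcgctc
CDKN2A downstream start, chr9:21974858-21975107, minus strand: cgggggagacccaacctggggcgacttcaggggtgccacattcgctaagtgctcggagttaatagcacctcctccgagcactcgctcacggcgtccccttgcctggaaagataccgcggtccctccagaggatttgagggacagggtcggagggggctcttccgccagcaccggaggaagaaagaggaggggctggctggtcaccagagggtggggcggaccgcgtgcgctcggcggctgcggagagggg
The CDK4 window held 3 E-boxes, and 3 of the 13 windows held any, the other two being windows of CDKN2C with 1 each. The E-box is the core motif of MYC with MAX and of other factors. At least 3 matches occurred in 0.0797% of the 35116 RefSeq windows of this length, and at least 1 in 6.34%. The E-box reads the same on both strands, and it was searched after the CDK4 letters had been seen. The E2F motif, searched as TTTCCCGC, TTTCGCGC, TTTGCCGC and TTTGGCGC on both strands, was found in 0 of the 13 windows and in 2.79% of all windows. The only RB1 window precedes an internal start at base 48476450, whereas the annotated gene begins at base 48303726. The only CDK4 start, on the minus strand, is at base 57752310, and its annotated gene begins at 57756013. The only CDKN1B start is at base 12717368, and its gene begins at 12715058. The furthest upstream CCND3 start, on the minus strand, is at base 42048688, and its gene begins at 42050357. Sequence before the first annotated base of these genes was not among the 13 windows, so the search gives no E2F or E-box result for it. The starts of CDKN2A lie 20467 bases apart. The upstream one makes the transcript for p14ARF, which acts on MDM2, and the downstream one that for p16.

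Docetaxel libraries had higher counts of 4 of the 10 genes and lower counts of 1. CCND3, CDK4, CDKN2A and CDKN2C rose by 1.13-fold to 1.16-fold, and CCND1 fell to 0.884 of its control level. The other 5, CCND2, CDK6, CDK2, CDKN1B and RB1, did not pass the test (edgeR quasi-likelihood test, called at a Benjamini-Hochberg adjusted p under 0.05 over 18040 genes). By the same rule 17.0% of all tested genes were called, 9.14% higher and 7.82% lower (1649 and 1410 genes, or 1096 and 1866 when scaled by library size alone). Among genes with at least 1 CPM in 3 libraries, the share was 23.8%. Over the 10 the median log2 difference was 0.05, beside 0.01 over all tested genes. At an unadjusted p under 0.05, 4 were higher and 2, CCND1 and RB1, lower, against 15.1% and 13.4% of tested genes (28.5% in all). Without docetaxel replicate 1 there were 3 lower, CCND1, CDKN1B and RB1, and without control replicate 2 or 3 or docetaxel replicate 2 or 3 there were 0. The share of all tested genes called lower moved the same way, to 9.76% without docetaxel replicate 1 and to between 3.93 and 5.80% in the other 4 fits. Groups did not overlap for 5 of the 10, against 32.0% of tested genes. When a trend with GC content and gene length was taken out of each library, 0 of the 4 rises passed and the fall of CCND1 did (values with each gene, as "with offsets"). In bulk RNA a change in the mix of cells, such as of cell cycle phases, and a change per cell cannot be told apart.

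**Figure D1:**
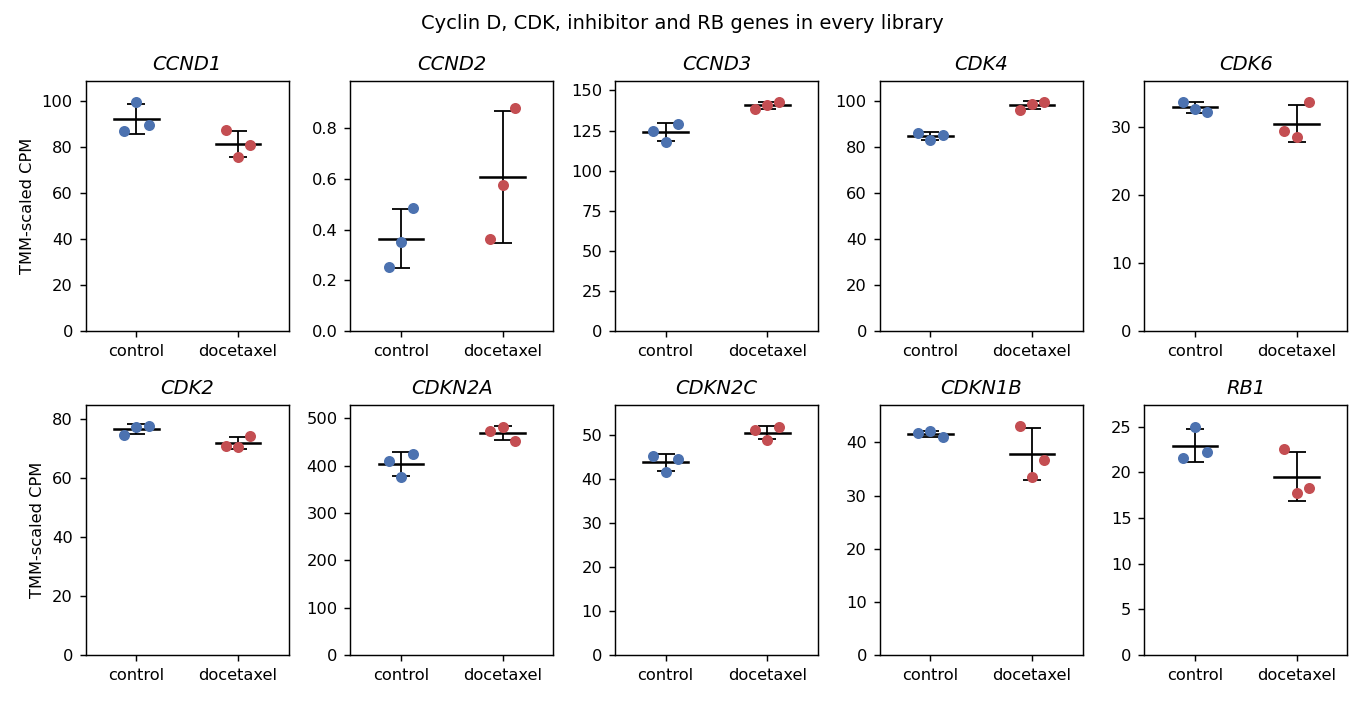
Expression of the 10 genes in each library, as CPM scaled by TMM (trimmed mean of M-values) on linear axes from 0, for control (blue, n = 3) and docetaxel (red, n = 3). Points are libraries 1 to 3 from left to right, long bars are means and capped bars are SD. CCND3, CDK4, CDKN2A and CDKN2C show every docetaxel library above every control library, and CDK2 shows the reverse.

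Among the D-type cyclins, CCND1 (ENSG00000110092, GRCh38 chromosome 11, 69641087 to 69654474, plus strand) encodes cyclin D1. Control replicates 1, 2 and 3 had 87.0, 99.5 and 89.75 CPM, and docetaxel replicates 1, 2 and 3 had 87.5, 76.0 and 80.7 CPM. The groups overlapped, because docetaxel replicate 1 lay between control replicates 1 and 3. The fall of 0.18 on the log2 scale had a standard error of 0.06 (edgeR adjusted p = 0.0270). With GC and length offsets it was larger, at -0.20 (adjusted p = 0.0348). The call was lost without control replicate 2 or 3 (adjusted p = 0.221 and 0.0532) and without docetaxel replicate 2 or 3 (0.150 and 0.119).

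CCND3 (ENSG00000112576, chromosome 6, 41934933 to 42050357, minus strand) encodes cyclin D3. It had 124.9, 118.1 and 129.4 CPM in control and 138.7, 140.8 and 143.0 CPM with docetaxel. Every docetaxel library was above every control library, which was so, in that direction, for 17.0% of tested genes. On the log2 scale the rise was 0.18 ± 0.05 (SE, edgeR adjusted p = 0.00475), and with offsets the value was 0.08 (adjusted p = 0.294).

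CCND2 (ENSG00000118971, chromosome 12, 4273772 to 4305350, plus strand), the cyclin D2 gene, was counted at 10, 15 and 20 reads in the controls, against 14, 22 and 34 reads under docetaxel. These are between 0.254 and 0.881 CPM, where the limit that a count of 0 allows is 3 reads, or 0.0720 to 0.0777 CPM, for counting error only. Its log2 fold change of 0.73 ± 0.52 (SE) was not called (edgeR adjusted p = 0.388). The 95% confidence interval, from 0.803-fold to 3.44-fold, leaves the direction undetermined at this depth. With offsets the log2 fold change was 0.80 (edgeR adjusted p = 0.490).

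The share of CCND3 among the D-type cyclins was larger in every docetaxel library than in any control library. Levels were compared between genes per length, as TPM (counts per length as a share of their library sum, from the deposited counts and gene lengths). CCND3 made up 54.2, 49.5 and 54.3% of the summed D-type cyclin TPM in control and 56.6, 60.4 and 59.3% with docetaxel. CCND1 made up 45.7, 50.4 and 45.6% and then 43.3, 39.4 and 40.5%, and CCND2 at most 0.263% in any library. The groups did not overlap for CCND1 or CCND3, and the difference for CCND3 was 6.11 percentage points. An exact two-sided permutation test gave p = 0.1 for each, the smallest that 3 libraries against 3 allow (0.167 adjusted over the 5 within-library values computed). Such a ratio does not depend on scaling between libraries, but CCND3 has the higher GC content, 56.2% against 50.3%. The size of each share also rests on the length used. The longest transcript of CCND3 has 2394 bases against a deposited 5761, and that of CCND1 has 4307 against 4761.

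**Figure D2:**
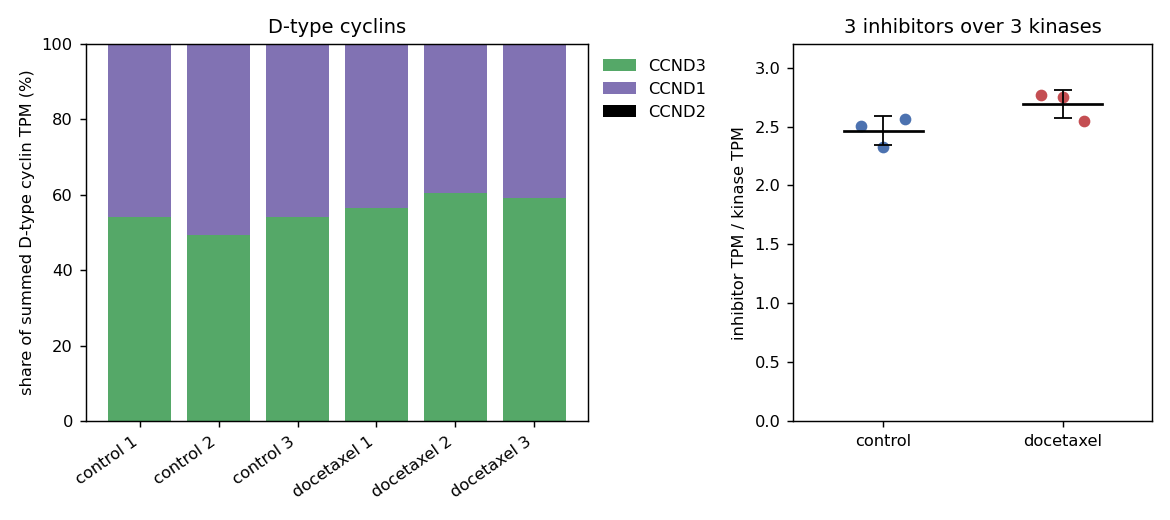
Left, the share of each D-type cyclin in their summed TPM (in %) for each library, stacked to 100, where CCND2 is too small to be seen. Right, the TPM of CDKN2A, CDKN2C and CDKN1B divided by that of CDK2, CDK4 and CDK6, with points for libraries, long bars for means and capped bars for SD (n = 3 each). The CCND3 share is higher in each docetaxel library, and the ratio overlaps between groups at 2.56 in control and 2.55 with docetaxel. CDKN2A makes up most of the inhibitor TPM.

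Of the kinases, CDK4 (ENSG00000135446, chromosome 12, 57747727 to 57756013, minus strand) rose, and CDK6 and CDK2 did not pass. CDK4 had 86.4, 83.2 and 85.3 CPM in control and 96.3, 98.7 and 99.7 CPM with docetaxel. The groups were far apart for their spread, with means of 85.0 ± 1.6 and 98.2 ± 1.7 CPM (SD, n = 3 each). The rise of 0.21 ± 0.05 (log2, SE, edgeR adjusted p = 0.00260) was called without any 1 of the 6 libraries. With offsets it was 0.13 (95% confidence interval 0.04 to 0.22, unadjusted p = 0.00466, adjusted p = 0.0762). CDK4 shares 1369 exon bases with TSPAN31, a tetraspanin gene on the opposite strand, and the strand setting of the counts is not given in the sources used here. TSPAN31 itself had 13.3 CPM in control and 14.8 CPM with docetaxel (log2 fold change 0.15, adjusted p = 0.341).

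CDK6 (ENSG00000105810, chromosome 7, 92604921 to 92836594, minus strand), the other partner of D-type cyclins, had 33.8, 32.7 and 32.2 CPM in control. It had 29.5, 28.5 and 33.7 CPM with docetaxel, so docetaxel replicate 3 lay among the controls. The log2 difference of -0.11 ± 0.07 (SE) was not called (edgeR adjusted p = 0.374) and with offsets had the opposite sign, at 0.09. Per length CDK4 was far above CDK6. Its share of their summed TPM was 91.0, 91.0 and 91.3% in control and 92.8, 93.2 and 92.1% with docetaxel (exact two-sided permutation p = 0.1, adjusted 0.167). CDK4 has a GC content of 53.6% and CDK6 of 39.5%, and with offsets their log2 differences were 0.13 and 0.09.

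CDK2 (ENSG00000123374, chromosome 12, 55966769 to 55972784, plus strand), the partner of cyclins E and A, had 74.6, 77.4 and 77.6 CPM in control and 71.0, 70.7 and 74.2 CPM with docetaxel. Each docetaxel library was below each control library, as in 15.0% of tested genes, but the difference of -0.09 ± 0.05 (log2, SE) did not pass (edgeR adjusted p = 0.267). With offsets the difference was -0.13 (unadjusted p = 0.0070, adjusted p = 0.0980).

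Of the inhibitors, CDKN2A (ENSG00000147889, chromosome 9, 21967753 to 21995301, minus strand) was the most abundant of the 10 genes per length, at the 98.0th percentile of tested genes. It had 409.5, 376.4 and 425.0 CPM in control and 473.4, 482.2 and 453.3 CPM with docetaxel, with no overlap. The rise of 0.22 ± 0.04 (log2, SE, edgeR adjusted p = 0.000546) was called without any 1 library. With offsets the value was 0.05 (95% confidence interval -0.02 to 0.12, adjusted p = 0.520). These reads do not say which of the starts shown above was used. CDKN2A shares 341 exon bases with the antisense gene CDKN2B-AS1, which had 7.46 CPM in control and 6.78 CPM with docetaxel (adjusted p = 0.609). Also on the opposite strand, CCND1 shares 497 with LTO1 (23.0 and 23.9 CPM, adjusted p = 0.735) and CDK2 shares 89 with PMEL (2.12 and 1.97 CPM, adjusted p = 0.844). The 5 other genes whose exons overlap those of members, AC025162.1, AC008012.1, CCND2-AS1, AC002454.1 and AL513008.1, had at most 7 reads in any library.

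CDKN2C (ENSG00000123080, chromosome 1, 50960745 to 50974633, plus strand) had 45.3, 41.5 and 44.5 CPM in control. With docetaxel it had 51.1, 48.8 and 51.8 CPM, again with no overlap. Its log2 fold change of 0.21 ± 0.06 (SE) passed (edgeR adjusted p = 0.0157), and with offsets it was 0.07 (adjusted p = 0.585). The call was lost without control replicate 2 (adjusted p = 0.0966) and without docetaxel replicate 1 or 3 (0.0635 and 0.0893), with values of 0.17 to 0.23 over all 6 omissions.

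CDKN1B (ENSG00000111276, chromosome 12, 12715058 to 12722371, plus strand), the p27 gene, varied little in control, at 41.7, 42.1 and 41.0 CPM. With docetaxel it had 43.1, 33.6 and 36.8 CPM, so replicate 1 was above all controls and the other two below them. The difference of -0.14 ± 0.07 (log2, SE) was not called (edgeR adjusted p = 0.223). Without docetaxel replicate 1 it was -0.26 and passed (adjusted p = 0.0105). The 3 inhibitors together had 2.46 ± 0.12 times the TPM of the 3 kinases in control and 2.69 ± 0.12 times with docetaxel (SD, n = 3 each, exact two-sided permutation p = 0.2). Most of the inhibitor sum was CDKN2A, at 294 TPM in control beside 41.0 for CDKN2C and 12.7 for CDKN1B. The CDKN2A count can include RNA from the upstream start, for p14ARF.

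RB1 (ENSG00000139687, chromosome 13, 48303726 to 48599436, plus strand), whose protein is the substrate of these kinases, had 21.6, 25.0 and 22.3 CPM in control. It had 22.6, 17.8 and 18.2 CPM with docetaxel, where replicate 1 lay among the controls and the others below them. Its log2 fold change of -0.23 ± 0.09 (SE) had an unadjusted p of 0.0179 and an adjusted p of 0.0855 (edgeR). Without docetaxel replicate 1 it was -0.37 and passed (adjusted p = 0.00585). With offsets it was -0.01 (95% confidence interval -0.17 to 0.16).

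Per length, the genes spanned a wide range in control libraries. CDKN2A stood first at 294 ± 13 TPM (SD, n = 3), followed by CDK4 at 77.7 ± 1.1, CCND3 at 60.9 ± 1.8, CDK2 at 55.7 ± 1.6 and CCND1 at 54.8 ± 4.7 TPM. CDK2 and CCND1 did not differ beyond their spread. Below them came CDKN2C at 41.0 ± 1.4, CDKN1B at 12.7 ± 0.4, RB1 at 10.1 ± 0.9, CDK6 at 7.61 ± 0.25 and CCND2 at 0.129 ± 0.040 TPM. The place of CDKN1B rests on its deposited length of 9255 bases, against 2811 exon bases in GENCODE 29. With GENCODE 29 lengths it came to 41.9 ± 1.2 and CDKN2C to 37.3 ± 1.3 on the same scale. Other places depend on length as well, since the deposited length can exceed the longest transcript. It was 3885 against 1283 bases for CDKN2A, 5761 against 2394 for CCND3, 3887 against 2598 for CDK2 and 3094 against 2076 for CDK4. For CCND1 it was 4761 against 4307, and no ranking by longest transcript was made.

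The 4 genes that rose were the 4 of the 10 with the highest GC content, between 53.6 and 61.4% in the longest transcript. CDK2 followed at 51.5% and CCND1 at 50.3%, and CDK6 and RB1 were lowest, at 39.5 and 37.3%. Over 13054 tested genes with a GC value and a mean of at least 1 CPM, the slope of each library's log2 CPM on GC content differed between the groups. Relative to the mean of the 6 libraries it was -0.054, -0.125 and -0.054 per 10 percentage points in the controls, in order of replicate, and 0.050, 0.098 and 0.084 in the docetaxel libraries. Control replicate 2 and docetaxel replicate 2 were the extremes. A loess curve of GC content and length, one per library, served as an offset in a further edgeR fit, which called 4.39% of tested genes, 2.76% higher and 1.63% lower. Of the 10 genes 0 were then higher and 1, CCND1, was lower. At an unadjusted p under 0.05 there were 2 higher, CCND3 and CDK4, and 2 lower, CCND1 and CDK2, beside 9.57% and 6.95% of tested genes (16.5% in all). Such offsets take out any change that follows GC content or length, whatever its source, and the part of the GC trend in each rise was not tested apart from this fit.

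**Figure D3:**
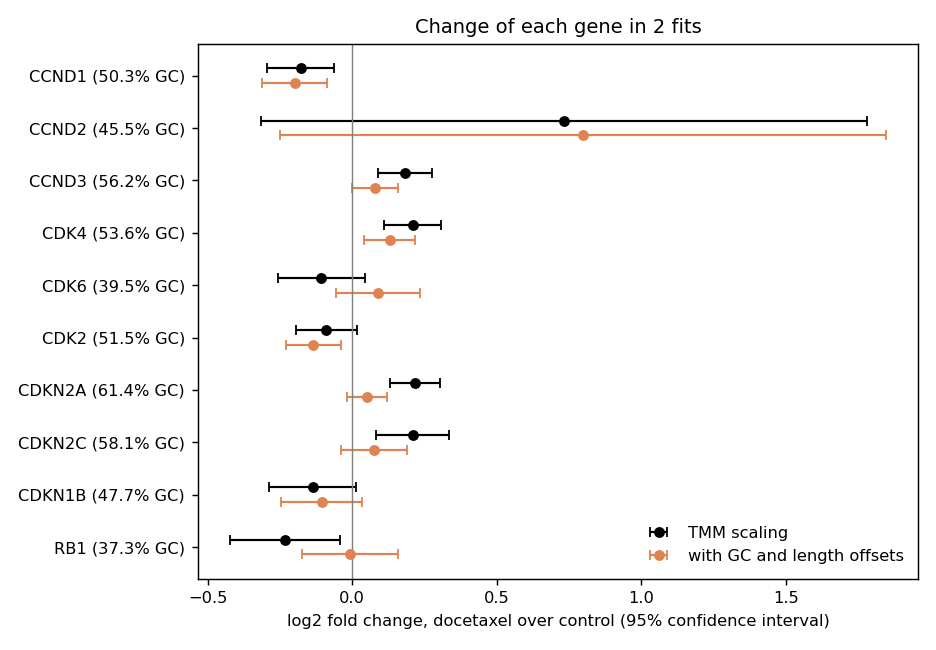
Log2 fold change of docetaxel over control for the 10 genes with 95% confidence intervals, scaled by TMM (black) and with GC and length offsets (orange), and the GC content of each longest transcript beside its name. CCND1 keeps its place at -0.18 and -0.20, whereas CDKN2A moves from 0.22 to 0.05 and RB1 from -0.23 to -0.01.

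**Figure D4:**
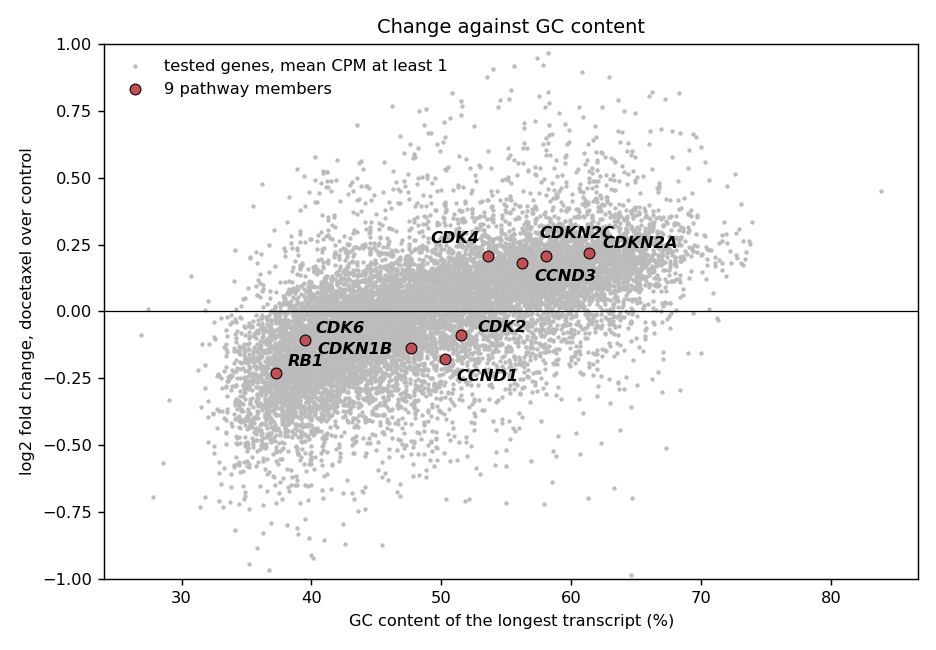
Log2 fold change against the GC content of the longest transcript (in %) for 13054 tested genes with a mean of at least 1 CPM (grey) and 9 of the 10 genes (red). CCND2 is under 1 CPM and left out, and 25 grey genes lie outside the vertical range. CCND3, CDK4, CDKN2A and CDKN2C lie inside the rising cloud, and CCND1 is at -0.18 and 50.3% GC.

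Other genes of the pathway were taken from lists by role. Over all tested genes 15.1% were higher and 13.4% lower at an unadjusted p under 0.05 (edgeR). With offsets the shares were 2.76% and 1.63% at an adjusted p under 0.05, and 9.57% and 6.95% at an unadjusted one. Among 4 further CDK inhibitors 1 rose and 0 fell, beside 9.14% and 7.82% of all tested genes (edgeR, with 2 higher and 0 lower at an unadjusted p under 0.05, and 0 lower by DESeq2 and limma-voom). The median log2 fold change was 0.16, beside 0.01 over all tested genes. With offsets the median was -0.0032, beside 0.01 over all tested genes. CDKN1A, which encodes p21 and inhibits CDK2 complexes, had 44.9, 47.5 and 48.5 CPM in control and 73.8, 77.8 and 69.3 CPM with docetaxel. The groups were well apart. Its log2 fold change of 0.65 ± 0.06 (SE, adjusted p = 2.16e-09) was the largest among the called genes of these lists and the 10 members, and with offsets it was 0.51 (adjusted p = 1.27e-08). CDKN1C, the p57 gene, averaged 37.8 CPM in the controls and 42.6 CPM under docetaxel (adjusted p = 0.0998). CDKN2B, the p15 gene beside CDKN2A, was at 22.4 and 21.7 CPM (adjusted p = 0.789), and CDKN2D, the p19 gene, at 10.92 and 12.04 CPM (adjusted p = 0.491). These last 3 changed sign with offsets.

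Of 12 RB relatives, E2F factors and their DP partners 1 rose and 3 fell, beside 9.14% and 7.82% of all tested genes. The median log2 fold change was -0.11. E2F4, a mainly repressive E2F, rose by 0.19 ± 0.05 (log2, SE, edgeR adjusted p = 0.00508). E2F3, an activating E2F, fell by 0.28 and E2F7, an atypical repressor, by 0.33 on the log2 scale. TFDP1, the main dimer partner of E2F proteins, fell by 0.15, from 217 ± 11 to 196 ± 3 CPM (SD, n = 3 each). With offsets 0 of the 12 were called by edgeR, with 0 higher and 3 lower at an unadjusted p under 0.05. E2F3 was not called without control replicate 2 or 3 or docetaxel replicate 2 or 3, and neither was E2F7, while TFDP1 lost its call on omission of control replicate 2 or of docetaxel replicate 3 (adjusted p of 0.0723 to 0.171 over these omissions). The list then had 1 lower gene without control replicate 2 or 3 or docetaxel replicate 2, and 0 without docetaxel replicate 3 (edgeR).

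Of 8 cyclins and activators that work with CDK2, with a median of -0.08, 0 were called by edgeR, DESeq2 or limma-voom (0 higher and 1 lower at an unadjusted p under 0.05 by edgeR). With offsets the median had the opposite sign, at 0.10, and again 0 were called by edgeR. Below an unadjusted edgeR p of 0.05 were then CDK7, higher at 0.16, and CCNE1, lower at -0.20. CDK7, the CDK-activating kinase itself, was named after its value was seen. CCNE1, the cyclin E1 gene, averaged 21.5 CPM in the controls and 19.7 CPM under docetaxel (adjusted p = 0.326). CCNA2, the cyclin A2 gene, was at 70.9 and 67.2 CPM (adjusted p = 0.383). CCNH and MNAT1, subunits of the CDK-activating kinase, had log2 fold changes of -0.16 and -0.12 (adjusted p = 0.156 and 0.460). With offsets the sign of CCNA2, CCNH and MNAT1 was positive.

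Among 11 genes that act on the turnover of cyclins or p27, 3 rose and 2 fell, beside 9.14% and 7.82% of all tested genes. The median log2 fold change was 0.08. SKP2, the F-box protein that marks p27 for degradation, had 97.4, 99.3 and 93.4 CPM in control and 88.4, 77.5 and 79.7 CPM with docetaxel. It fell by 0.24 ± 0.05 (log2, SE, edgeR adjusted p = 0.00166), and with offsets the difference was -0.05. FZR1, an activator of the anaphase-promoting complex, rose by 0.20. AMBRA1, a ligase receptor for D-type cyclins, rose by 0.26, and RNF123, a ligase for p27, by 0.25 on the log2 scale. The other gene that fell, named after its value was seen, was FBXW7, a ligase receptor for cyclin E, at -0.41 (adjusted p = 0.0465). Without control replicate 2 or 3 or docetaxel replicate 2 or 3, SKP2 was the 1 lower gene left, and FBXW7 was not called. AMBRA1 was not called without control replicate 1 or 3 or docetaxel replicate 2 (0.0699, 0.0819 and 0.192), nor RNF123 without control replicate 2 or docetaxel replicate 2 or 3 (0.161, 0.0638 and 0.149). With offsets 1 of the 11 was higher and 0 lower, beside 2.76% and 1.63% of all tested genes (3 higher and 1 lower at an unadjusted p under 0.05). That 1 was CKS1B, the cofactor of SKP2, at 0.16 (adjusted p = 0.0260), which was also named after its value was seen.

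The MuvB core forms complexes that switch cell cycle genes off in quiescence and, with MYBL2, on before mitosis. Of 6 tested genes 1 rose and 1 fell, beside 9.14% and 7.82% of all tested genes, with a median log2 fold change of -0.01. MYBL2 rose by 0.16, from 326 to 364 CPM (edgeR adjusted p = 0.00724), and LIN9 fell by 0.34 on the log2 scale (adjusted p = 0.0110). With offsets 0 were called, with 1 higher and 1 lower at an unadjusted p under 0.05, and MYBL2 had a log2 difference of -0.0040. LIN54 and RBBP4, which were not called, had differences of -0.16 and -0.04, and positive ones with offsets. The call of MYBL2 was lost on omission of control replicate 2 (adjusted p = 0.0574) or of docetaxel replicate 3 (0.0869), and that of LIN9 without control replicate 2 or docetaxel replicate 2 or 3 (0.153, 0.0523 and 0.0685).

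Genes that E2F factors drive into S phase gave a mixed picture. Of 24 tested 6 rose and 2 fell, beside 9.14% and 7.82% of all tested genes, with a median log2 fold change of -0.01. TK1, thymidine kinase, had 174, 164 and 169 CPM in control and 209, 210 and 197 CPM with docetaxel (log2 fold change 0.28 ± 0.04, SE, edgeR adjusted p = 4.40e-05). MCM7, a helicase subunit, rose by 0.17 and CDT1, a replication licensing factor, by 0.18. UHRF1, which maintains DNA methylation, had 93.8, 101.8 and 95.8 CPM in control and 88.9, 78.3 and 82.8 CPM with docetaxel. It fell by 0.22 ± 0.05 (adjusted p = 0.00335), and with offsets by 0.30 (adjusted p = 0.000158). With offsets 0 of the 24 were higher (2 at an unadjusted p under 0.05) and 2 lower, UHRF1 among them. Without control replicate 2 there were 3 higher, and without docetaxel replicate 3 there was 1 lower.

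Of 24 genes of mitosis 6 rose and 3 fell, beside 9.14% and 7.82% of all tested genes, with a median log2 fold change of 0.09. CDC20, which activates the anaphase-promoting complex, rose by 0.23 (edgeR adjusted p = 0.000271), TACC3, a spindle protein, by 0.20 and FOXM1, a transcription factor of mitotic genes, by 0.19. CDK1, the mitotic kinase, had 86.3, 96.0 and 84.0 CPM in control and 77.2, 76.6 and 75.3 CPM with docetaxel. It fell by 0.22 (adjusted p = 0.00429), and with offsets the difference was 0.0024. With offsets 3 of the 24 were higher and 0 lower (11 and 0 at an unadjusted p under 0.05), beside 2.76% higher of all tested genes and 9.57% at an unadjusted p. These 3, named after their values were seen, were CCNB1, the cyclin B1 gene, CENPF, a kinetochore protein, and TPX2, a spindle assembly factor, at 0.16, 0.19 and 0.13. CDK1 was not called without control replicate 2 (adjusted p = 0.0569), and the list then had 1 lower gene.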

How the data were processed

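Paired-end reads of 150 bases came from poly(A) RNA of 6 libraries. The authors deposited raw read counts per Ensembl gene, with a gene length column whose values, in bases, are here read as another measure and used for TPM and for the offsets. The tools featureCounts 2.0.1 and MultiQC 1.11 and the build GRCh38 are named, without their roles, per the submitters' processing notes. For the aligner, annotation release, strand setting and handling of overlapping or multi-mapping reads: not given in the sources used here. Table columns were matched to samples by library name.

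Genes kept by filterByExpr (18040, with 99.88% of counts) were scaled by TMM and tested in edgeR 4.0.16 under R 4.3.3 (glmQLFit with robust estimation, glmQLFTest, two-sided, Benjamini-Hochberg adjustment). Each standard error and 95% confidence interval was derived from the p of the same test. The fit was also run on simulated counts. These held no GC trend and no change as small as those of the called members, so they cannot speak for these calls. Shares within the pathway used exact permutation tests over libraries. Offsets came from a loess fit (span 0.5) of each library's log2 CPM, as deviation from the gene mean, on GC content (longest GENCODE 29 transcript, known for 91.0% of tested genes) and log2 length. Genes with no GC value kept the plain TMM offset. Coordinates and overlaps are from GENCODE 29. As alternatives, DESeq2 1.42.0 and limma-voom (limma 3.58.1) were run, as were scaling by library size, upper quartile or RLE, other filters on low counts, the offsets, the replicate number as a block, and leaving out each library. A length alternative was added after the data were seen.

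The members and lists were chosen with earlier results of these data known. Named were all members, up to 4 genes with the smallest p from each list, genes sharing exon bases with a member, and all markers. As no separate cultures are named, the spread behind each p-value is that of these libraries and may be technical. Pairs within a group differed by more than sampling noise (Poisson dispersion index 4.92 to 12.7). One gene of the lists is counted but not reported here by name.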

Additional observations from a re-analysis of the deposited data

How the results depend on the processing

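The 10 members kept their direction over up to 16 alternative fits each, except CDK6 (0.0899 with GC and length offsets, 0.0867 with offsets and the replicate block). Of 158 such values for members 18 lost the call and 2 gained it, CDKN1B and RB1 without docetaxel replicate 1. CCND3, CDK4 and CDKN2A lost the call only with the offsets, alone or with the block. CDKN2C also lost it with library size only (adjusted p = 0.0570) and without 3 single libraries. Over leaving out each library, members called ranged from 3 to 4 higher and 0 to 3 lower, all genes from 990 to 1397 higher and 740 to 1841 lower, RB and E2F genes from 0 to 4 lower, turnover genes from 1 to 3 higher and 1 to 2 lower, MuvB genes from 0 to 1 higher and 0 to 2 lower, E2F targets from 3 to 6 higher and 1 to 2 lower, and mitotic genes from 1 to 4 lower. Over all genes the lowest counts came without control replicate 2 (990 and 740), docetaxel replicate 3 gave 1056 and 768, and docetaxel replicate 2 gave 1089 higher.

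With offsets 498 genes were higher and 294 lower, and of the members 0 were higher. For RB and E2F genes and for MuvB genes the counts were 0 higher and 0 lower, for turnover genes 1 and 0, for E2F targets 0 higher, and for mitotic genes 3 and 0. Among the members and the list genes named by rule, signs turned, besides CDK6, for CDKN1C (-0.0292), CDKN2D (-0.0314), CDKN2B (0.0229), CCNH (0.11), CCNA2 (0.0236), MNAT1 (0.10), MYBL2 (-0.0040), LIN54 (0.0207), RBBP4 (0.11), CDT1 (-0.0313) and CDK1 (0.0024). Outside these, COL1A1 (-0.09), VWF (-0.10) and CDKN2B-AS1 (0.03) also turned. By construction the offsets remove what follows GC content and length.

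Deviations of same-numbered libraries from their group means correlated at -0.044, -0.058 and 0.017, so no pairing by replicate number was seen. With 3 libraries per group and the GC trend left in, these values cannot exclude pairing. With the replicate block 0 members were lower (CCND1 adjusted p = 0.0740), 1 turnover gene was lower (FBXW7 adjusted p = 0.0765), and over all genes 1283 were higher and 1106 lower. With the replicate block and offsets together 348 genes were higher and 205 lower, 0 members were higher and 0 lower, and the lists gave 0 and 0 for RB and E2F, turnover and MuvB genes, 0 higher and 1 lower for E2F targets, and 2 and 0 for mitotic genes. Signs turned there for CDKN1C (-0.0315), CDKN2D (-0.0233), CDKN2B (0.0244), CCNH (0.11), CCNA2 (0.0225), MNAT1 (0.10), MYBL2 (-0.0043), LIN54 (0.0092), RBBP4 (0.11), CDT1 (-0.0309) and CDK1 (0.0028).

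Library size only gave 1096 genes higher and 1866 lower, against 1649 and 1410, and of the members 3 higher and 1 lower. Upper-quartile scaling, limma-voom and no filter on low counts each gave 1 turnover gene lower. Without division by length the CDK4 share differed by 4.22 percentage points. The cause of these moves was not tested. The other within-library values moved by less than the spread between replicates. At this depth CCND2 alone among the members was limited by counts.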
